A study of Pleurotus ostreatus with 32 samples.

Results

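The early stipe genes described here are 116 of the 10755 genes in the deposited log2 FPKM table of the oyster mushroom Pleurotus ostreatus. They are the genes whose mean log2 FPKM in the stipe of stage 3 primordia and in the stipe of young fruiting bodies was in both cases at least 1 above the higher of the stage 3 cap and young cap means, that is at least 2-fold higher, and whose mean raw count was at least 100 in both stipes. FPKM is the number of sequenced fragments per kilobase of gene and per mega of fragments, so it is a level per length. The 12 stage 3 and young libraries therefore chose these genes, and their values in those libraries are given as a description with no test. The tests below compare groups that took no part in the choice, which are the vegetative mycelium, the stage 1 primordia and the 5 mature tissues. The spread behind these tests was estimated in 1 fit of all 32 libraries, those that chose the genes among them.

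All libraries came from 1 dikaryotic strain, N001, in which each cell carries a pair of unlike nuclei, and no group differed from another by genotype or treatment. Per the labels, fruiting took place on spawn in bags at 18 to 19 °C and 80 to 85% humidity, with 8 h light and 16 h dark. Tissue of 3 to 8 fruiting bodies went into each replicate of the fruiting stages. The groups were vegetative mycelium, whole stage 1 primordia, stipe and cap of stage 3 primordia, stipe and cap of young fruiting bodies, and stipe, cap, lamellae, skin and a tissue labelled dedifferentiated cap of mature fruiting bodies. There were 2 libraries of the dedifferentiated cap and 3 of every other group. Depth, as the summed counts of a library, lay between 13.5 and 25.9 M, where M stands for mega, and was lower in mature stipes (14.0 to 15.4 M) than in stage 3 and young stipes (19.9 to 24.8 M).

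A mushroom stipe raises the cap above the substrate, mostly by elongation of its hyphal cells, while the cap spreads and carries the lamellae, the gills on which meiosis takes place and spores form. A primordium starts as a compact knot of hyphae and becomes divided into stipe and cap regions before the fruiting body expands. The files give genes as numbers, and 0 of these identifiers matched the reference list of 11849 genes available for another strain, so the numbers could not be paired with names, products, positions or sequences. What the early stipe genes encode is therefore not described, and tissue labels were not checked against marker genes.

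One library stood apart before any result is read. Replicate 3 of the stage 3 stipe lay at -111.5 on the fourth principal component of log2 CPM (8.61% of the variance), against 19.5 and 34.7 for the other stage 3 stipe replicates, and its TMM scaling factor was 0.690, the lowest of the 32 libraries. It took part in the choice of the genes. Chosen without it, the same rule gave 167 genes, of which 98 were among the 116. Chosen without any single one of the other 11 libraries, it gave 109 to 128 genes, of which 98 to 112 were shared. Counts and medians for these 167 genes stand beside those of the 116 in each comparison below.

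By choice, the 116 genes were high in both early stipes and low in both early caps. The median over the genes was 95.2, 79.0 and 101 FPKM in the 3 stage 3 stipe libraries, against 14.3, 14.9 and 19.8 FPKM in the stage 3 caps. In young bodies it was 112, 83.4 and 94.8 FPKM in stipes, against 21.4, 16.2 and 23.1 FPKM in caps. The stipe-cap difference of the group means had a median of 2.12 log2 units at stage 3 and 1.84 in young bodies. Every stage 3 stipe library was above every stage 3 cap library for 104 of the 116 genes (8.19% of all genes in the table), and every young stipe library above every young cap library for 110 (7.82% of all genes). These counts follow from the rule.

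Most of these genes lay near the threshold. The margin, which is the lower stipe mean minus the higher cap mean, was between 1 and 2 log2 units for 95 genes, between 2 and 3 for 15 and at least 3 for 6. Just inside the threshold, 2 genes had margins of 1.0011 and 1.0057 (in the first of them, log2 FPKM means of 9.89 and 9.69 in the stage 3 and young stipes, and 8.41 and 8.68 in the caps). Just outside it, 2 genes that passed the count minimum had margins of 0.9986 and 0.9974. The widest margin was 4.58, in gene 165, with log2 FPKM means of 6.74 and 6.40 in the stage 3 and young stipes, and 1.82 and -0.41 in the caps.

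In mature fruiting bodies the early stipe genes were high in the stipe, the cap and, to a lesser degree, the skin, and low in the lamellae and the dedifferentiated cap. The median over the 116 genes averaged 139 ± 21.7 FPKM in mature stipe, 106 ± 22.9 in mature cap, 63.1 ± 7.16 in skin, 22.7 ± 1.11 in lamellae (SD, n = 3 each) and 30.9 ± 1.47 in the dedifferentiated cap (SD, n = 2). The libraries of stipe (121, 134 and 163 FPKM) and cap (82.9, 129 and 106 FPKM) overlapped. Skin libraries (69.8, 55.5 and 63.9 FPKM) lay below all stipe and cap libraries, the dedifferentiated cap (31.9 and 29.8 FPKM) below all skin libraries, and the lamellae (21.7, 23.9 and 22.6 FPKM) below the dedifferentiated cap. Over all genes in the table, the median of the group means stayed between 4.53 and 4.81 log2 FPKM in the 11 groups. These are bulk tissues, in which fewer cells of a type and less RNA per cell cannot be told apart.

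**Figure D1:**
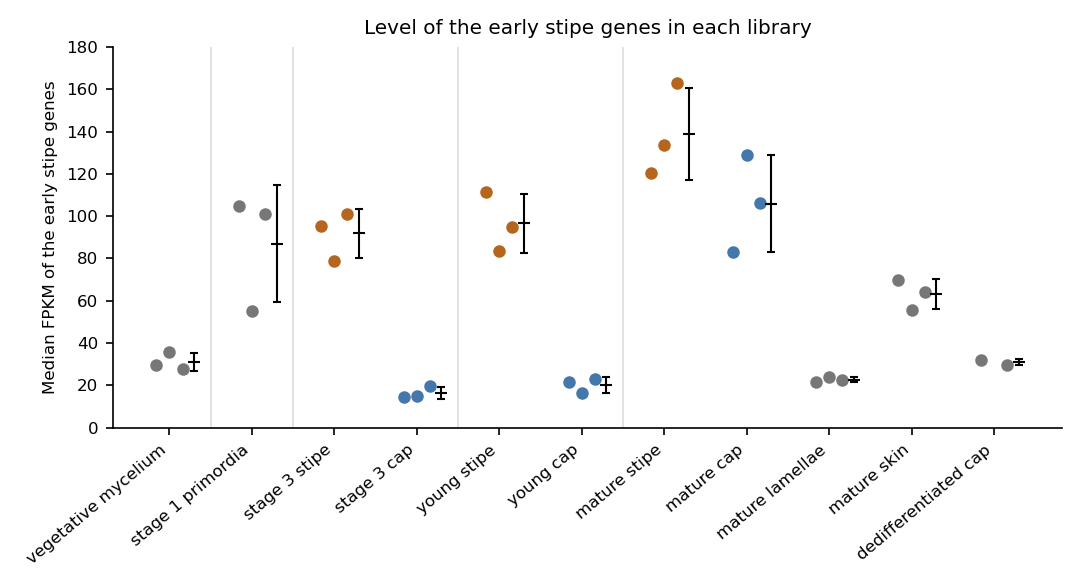
Median FPKM of the 116 early stipe genes in each library (points), with the mean and SD of each group (black bars); stipes are brown, caps blue and other tissues grey. Libraries of early stipes (79.0 to 112 FPKM) and early caps (14.3 to 23.1 FPKM) were separated by the choice of genes, whereas mature stipe and mature cap overlapped and lamellae lay at 21.7 to 23.9 FPKM.

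Gene by gene, the ends of this order of mature tissues were seen again, but not its middle. Of the 116 genes, 70 had their highest mature mean in the stipe, against 20.3% of all genes, and 21 in the cap, against 14.4%. The dedifferentiated cap was highest for 14 (30.5% of all genes), skin for 8 (9.4%) and lamellae for 3 (25.4%). The lowest mature mean was in the lamellae for 55 and in the dedifferentiated cap for 50, against 25.1% and 31.1% of all genes. It was in the mature cap for 7 (15.5% of all genes), in skin for 2 (7.7%) and in the stipe for 2 (20.6%). A ranking over all 11 groups includes those that chose the genes, so its counts are partly fixed by the rule. By the rule the stage 3 cap and the young cap were highest for 0 genes each, against 11.7% and 2.3% of all genes. The mature stipe held the highest mean for 43 of the 116 genes, against 11.5% of all genes, and stage 1 primordia for 13, against 3.1%. The mycelium was highest for 14, against 20.5% of all genes, the stage 3 stipe for 11, against 9.4%, and the young stipe for 9, against 4.5%. The mature cap was highest for 11, against 7.4% of all genes, the dedifferentiated cap for 9, against 17.3%, skin for 4, against 3.1%, and lamellae for 2, against 9.2%.

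An edgeR quasi-likelihood F test over the 5 mature tissues was used to ask how many of these genes vary among them. Calls required an adjusted p (Benjamini-Hochberg) below 0.05 and group means spanning 4-fold or more, which 98 of the 116 genes met, against 32.2% of all 10814 genes tested. All 116 genes passed the filter on low counts. Of the 167 genes chosen without stage 3 stipe replicate 3, 119 were called. Of the 217 early cap genes, chosen by the mirror of the rule and described below, 162 were called. A share above that of all genes was thus not particular to the early stipe genes. The median range was 3.53 log2 units for the 116 genes and 1.54 for all genes tested. The early cap genes also had a median range above that of all genes.

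Whether the early stipe bias was kept at maturity was addressed by comparing mature stipe with mature cap. The group mean was higher in mature stipe than in mature cap for 89 genes and lower for 27. The difference had a median of 0.47 log2 units in FPKM, against 0.04 for all genes in the table. The early differences were chosen to be at least 1 log2 unit, so their size is no measure against which this one can be tested. The difference was at least 2-fold for 29 genes in favour of the stipe and for 3 in favour of the cap. For these 2-fold counts and for the 89 and 27 genes no share of all genes is given, so they are a description only. Every mature stipe library was above every mature cap library for 52 of the 116 genes (16.2% of all genes) and below for 6 (12.3% of all genes).

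**Figure D2:**
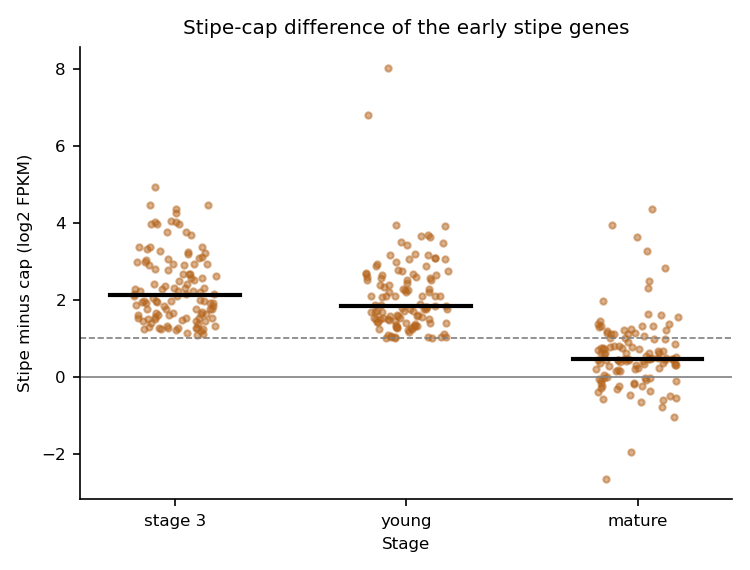
Difference of mean log2 FPKM between stipe and cap for each of the 116 early stipe genes (points) at stage 3, in young and in mature fruiting bodies, with the median as a black bar; the dashed line is a 2-fold difference. The medians are 2.12 and 1.84 in the 2 stages that chose the genes and 0.47 in mature bodies, where 27 genes lie below 0.

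In the test, 9 of the 116 genes rose in mature stipe against mature cap, against 1.46% of all genes tested (1.68% in either direction). Here and below a call required an adjusted p (edgeR, Benjamini-Hochberg) below 0.05 and a change of 2-fold or more. No gene of the list fell in this edgeR test, against 0.222% of all genes. At an unadjusted p under 0.05, 4 were lower and 26 were higher, and the DESeq2 test called 14 higher and 1 lower. For counts at an unadjusted p or from DESeq2, here and below, no share of all genes is given, so they are a description only. The median log2 fold change was 0.46, against 0.02 for all genes tested. Of the 167 genes chosen without stage 3 stipe replicate 3, 8 were called higher, 98 had a positive and 69 a negative fold change, and the median was 0.20. The 217 early cap genes, described below, also had a median above that of all genes, at 0.20, with calls in both directions. The count of 9 rested on single libraries. It was 0 without mature cap replicate 1 (19 higher and 3 lower at an unadjusted p under 0.05), 3 without mature cap replicate 3, 4 without mature stipe replicate 1 and 5 without either of the other stipe replicates.

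Gene 9002 had 113, 117 and 49.4 FPKM in mature stipe, against 1.52, 8.16 and 6.12 FPKM in mature cap. All stipe libraries lay above all cap libraries, and the log2 fold change was 4.15 ± 0.89 (SE; edgeR, Benjamini-Hochberg adjusted p = 0.0113; 3.19e-05 to 0.0963 over the 18 alternatives, lost without cap replicate 1 or 3 or stipe replicate 1). Gene 1784 had the largest difference of the 9, with 3.36, 5.24 and 154 FPKM in mature stipe and 0.848, 0.896 and 0.992 FPKM in mature cap, so that 1 stipe library was far above the other stipe libraries. Its log2 fold change of 5.92 ± 1.47 (SE; edgeR, Benjamini-Hochberg adjusted p = 0.0337; 6.3e-05 to 0.385 over the alternatives) was 2.26 without mature stipe replicate 3, and it lost its call under 9 of 18 alternatives, each single cap library left out among them. The levels of these genes differed from the early stipe in opposite directions: gene 9002 averaged 93.1 ± 37.9 FPKM in mature stipe, above its 4.95 ± 2.75 at stage 3 and 2.92 ± 1.59 in young stipe, and gene 1784 averaged 54.1 ± 86.2 FPKM in mature stipe, below its 5287 ± 4125 and 1961 ± 1077 (SD, n = 3 each).

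Early and mature differences were also set side by side across the 116 genes. Between young and mature bodies, the stipe-cap differences correlated with Pearson's r at 0.427 and Spearman's rho at 0.193. Between stage 3 and mature bodies r was 0.157 and rho 0.063. These are descriptions across genes chosen for a large early difference, which narrows its range, and genes are not independent replicates. Of the 21 genes with a margin of at least 2 log2 units, 4 rose in mature stipe against mature cap (1.46% of all genes tested). The median log2 fold change of the 21 was 0.56.

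Levels in young and mature bodies are given as a description, since the young libraries chose the genes and the rule asks for low values in young cap. The mean was at least 2-fold higher in mature than in young cap for 89 of the 116 genes (22.6% of all genes) and at least 2-fold lower for 2 (20.1% of all genes), with a median of 1.91 log2 units. In stipes it was at least 2-fold higher in mature than in young for 45 (25.0% of all genes) and at least 2-fold lower for 14 (17.1% of all genes), with a median of 0.59. Skin exceeded young cap at least 2-fold for 77 genes (19.6% of all genes), while lamellae did so for 31 (16.8% of all genes) and lay at least 2-fold below young cap for 27 (11.1% of all genes). Young cap was exceeded at least 2-fold by the dedifferentiated cap for 42 genes (25.7% of all genes), and the dedifferentiated cap lay at least 2-fold below it for 26 (22.1% of all genes).

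**Figure D3:**
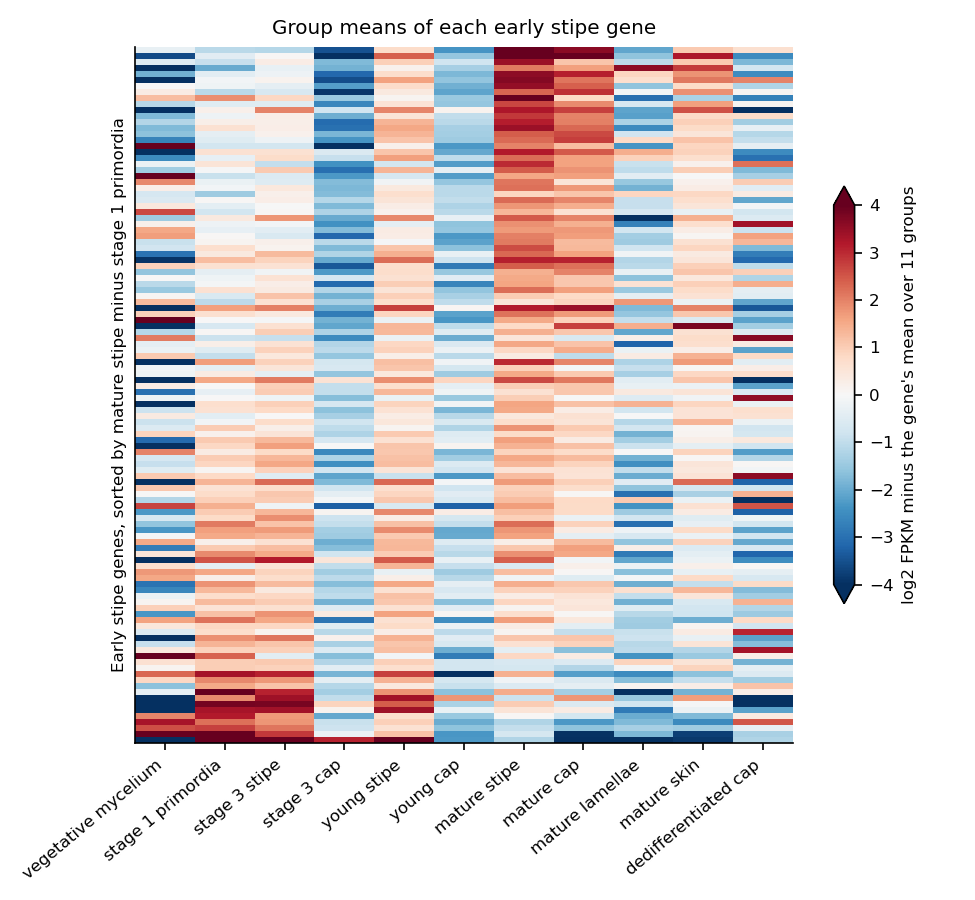
Mean log2 FPKM of each of the 116 early stipe genes (rows) in the 11 groups (columns), minus the gene's own mean over the groups, sorted from the genes with the largest gain in mature stipe over stage 1 primordia (top) to those with the largest loss (bottom). Mature stipe and cap share the high values of the upper rows, lamellae and the dedifferentiated cap are mostly low, and the bottom rows are higher in stage 1 primordia than in mature stipe.

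Mature stipe was then compared with the other mature tissues. These comparisons share the 3 mature stipe libraries, so they are not independent of each other. Against lamellae, 88 of the 116 genes were higher in stipe (17.6% of all genes tested) and 2 were lower (16.7% of all genes). The median log2 fold change was 2.49, against 0.00 for all genes, and leaving out any single library of these groups or stage 3 stipe replicate 3 left 81 to 92 genes called. Of the 167 genes chosen without stage 3 stipe replicate 3, 105 were higher and 1 was lower, with a median of 1.90.

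Gene 9002 had the largest rise among the genes that met the naming rule in this comparison. It had 113, 117 and 49.4 FPKM in mature stipe and 0.167, 0.739 and 0.210 FPKM in lamellae, where the 3 libraries held 6, 18 and 8 counts. The log2 fold change was 8.10 ± 1.1 (SE; edgeR, Benjamini-Hochberg adjusted p = 2.27e-06). In the other direction, gene 9508 had 43.1, 41.6 and 87.0 FPKM in mature stipe and 134, 141 and 197 FPKM in lamellae, with no overlap. Its log2 fold change was -1.46 ± 0.47 (SE; edgeR, Benjamini-Hochberg adjusted p = 0.0148; 0.00344 to 0.072 over the alternatives, lost without lamellae replicate 3 or stipe replicate 1 or 2). In lamellae, gene 9508 stood at 157 ± 34.7 FPKM, close to its 175 ± 34.3 in stage 3 stipe and 172 ± 73.7 in young stipe (SD, n = 3 each).

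Against skin, 50 of the 116 genes were higher in mature stipe (4.99% of all genes tested) and 3 were lower (4.35% of all genes). The median log2 fold change was 1.18, against 0.01 for all genes. Of the 167 genes, 55 were higher and 4 lower, with a median of 0.95. In either direction 53 were called (9.34% of all genes). Without skin replicate 2 the counts were 32 higher and 1 lower. Gene 9002 had 1.54, 0.917 and 0.718 FPKM in skin, below every stipe library, and a log2 fold change of 6.46 ± 1.01 (SE; edgeR, Benjamini-Hochberg adjusted p = 0.000101). Gene 10083 was lower in stipe, at 5.92, 6.52 and 7.12 FPKM, against 52.6, 15.4 and 66.0 FPKM in skin. Its log2 fold change was -2.78 ± 0.82 (SE; edgeR, Benjamini-Hochberg adjusted p = 0.0268; 0.00334 to 0.104 over the alternatives, lost without any one of 5 of the 6 libraries, skin replicate 2 being the exception). Gene 10083 averaged 6.52 ± 0.599 FPKM in mature stipe and 42.1 ± 15.0 in mature cap, a difference that was not called (log2 fold change -2.70 ± 0.82, SE; edgeR, Benjamini-Hochberg adjusted p = 0.0951). Young stipe had 123 ± 27.6 and young cap 46.9 ± 29.2 FPKM (SD, n = 3 each).

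Against the dedifferentiated cap, 73 of the 116 genes were higher in mature stipe (16.3% of all genes tested) and 8 were lower (18.7% of all genes), with a median log2 fold change of 2.00, against -0.04 for all genes. Of the 167 genes, 90 were higher and 12 lower, with a median of 1.67. In either direction 81 were called (35.0% of all genes), and 59 without dedifferentiated cap replicate 2, where the remaining library had to borrow its spread from the other groups. Gene 9002 had 0.463 and 0.291 FPKM in the dedifferentiated cap, from 14 and 10 counts, and a log2 fold change of 8.00 ± 1.32 (SE; edgeR, Benjamini-Hochberg adjusted p = 3.35e-05). Gene 6585 was the most reduced in stipe, at 14.6, 13.3 and 17.7 FPKM, against 29.9 and 612 FPKM in the dedifferentiated cap. Its log2 fold change of -4.40 ± 0.84 (SE; edgeR, Benjamini-Hochberg adjusted p = 0.00018; 7.57e-08 to 0.395 over the alternatives) was -0.98 without dedifferentiated cap replicate 2, so the call rested on that library. Between the 2 dedifferentiated cap libraries, 11 of the 116 genes differed over 4-fold, 9 with replicate 1 higher and 2 with replicate 2 higher, against 4.3% of all genes.

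**Figure D4:**
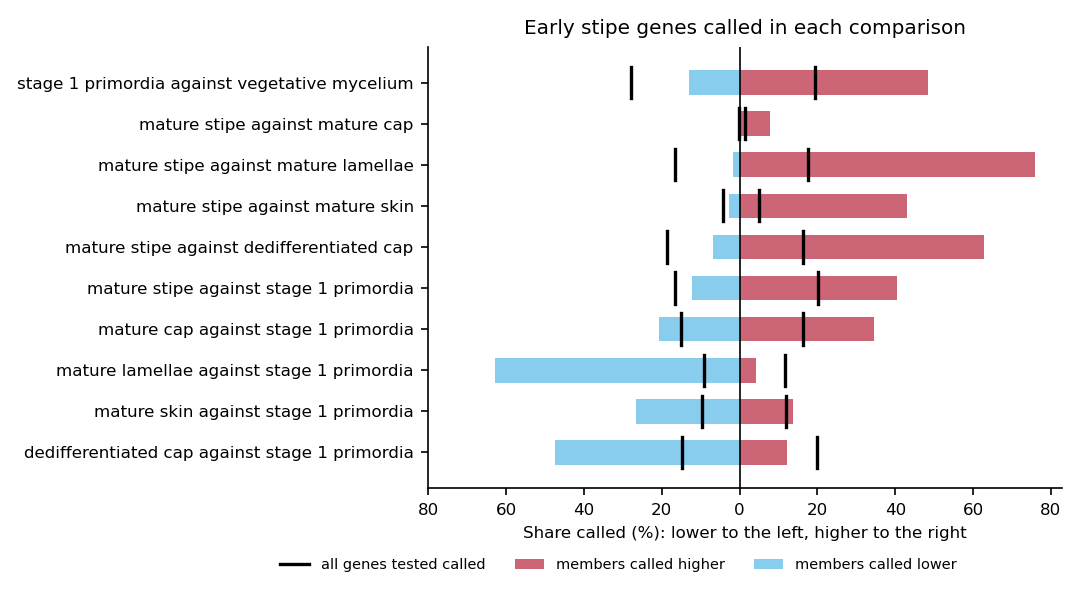
Share of the 116 early stipe genes called higher (red, right) or lower (blue, left) in the first-named group of each comparison, in percent, with the share of all 10814 tested genes as black ticks. Red bars extend beyond their ticks for stage 1 primordia over mycelium (48.3%) and for mature stipe over lamellae, skin, dedifferentiated cap and mature cap (75.9%, 43.1%, 62.9% and 7.76%), and blue bars for lamellae and dedifferentiated cap below stage 1 primordia (62.9% and 47.4%), among others.

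The start of fruiting was examined through stage 1 primordia, which were sampled whole, before stipe and cap were taken apart, and took no part in the choice. The median over the early stipe genes was 105, 55.0 and 101 FPKM in stage 1 primordia, against 29.7, 35.9 and 27.7 FPKM in mycelium. All primordium libraries lay above all mycelium libraries, with replicate 2 well below the other primordia. Of the 116 genes, 56 rose in stage 1 primordia against mycelium (19.3% of all genes tested) and 15 fell (27.9% of all genes), with a median log2 fold change of 1.13, against -0.14 for all genes. Among the 167 genes chosen without stage 3 stipe replicate 3, 56 rose and 24 fell, and the median was 0.31.

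Gene 1784 rose most, at 7336, 5305 and 2556 FPKM in stage 1 primordia, against 0.478, 8.01 and 1.24 FPKM in mycelium. Its log2 fold change was 10.65 ± 1.76 (SE; edgeR, Benjamini-Hochberg adjusted p = 1.56e-05), and 4 of its 32 counts were not whole, so reads may be shared with a similar or overlapping gene and the level is uncertain to that extent. Gene 7853 fell most, at 68.2, 19.5 and 58.4 FPKM in primordia and 5675, 4702 and 6431 FPKM in mycelium. The log2 fold change was -6.84 ± 0.56 (SE; edgeR, Benjamini-Hochberg adjusted p = 4.98e-10), with fractional counts in 6 libraries. Gene 7853 was thus a mycelial gene first of all, with a mean of 5603 ± 867 FPKM there. Its early stipe bias stood on lower levels, 43.5 ± 9.59 FPKM in stage 3 stipe over 4.36 ± 1.88 in stage 3 cap (SD, n = 3 each). At maturity it had 284 ± 42.6 FPKM in stipe and 170 ± 37.5 in cap (SD, n = 3 each). These mature means were less than 2-fold apart (8.14 and 7.39 in mean log2 FPKM).

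Replicates of stage 1 primordia differed more over these genes than over all genes. The highest library exceeded the lowest by a median of 2.60-fold over the 116 genes and 1.71-fold over all genes, and by more than 4-fold for 29 of the 116 (25.0%), against 5.5% of all genes. In the stage 3 stipe the shares over 4-fold were 29.3% of the early stipe genes and 28.2% of all genes, in mycelium 29.3% and 14.7%, and in mature stipe 2.6% and 4.4%. The early cap genes, chosen by the mirror of the rule (217 genes with both cap means at least 1 log2 unit above both stipe means and mean counts of 100 or more in the caps), had medians of 15.5, 18.4 and 8.29 FPKM in stage 1 primordium replicates 1, 2 and 3. Replicate 2, with the lowest early stipe level, thus had the highest early cap level. Replicates 1 and 3 had similar early stipe medians (105 and 101 FPKM), while their early cap medians differed (15.5 and 8.29 FPKM). How much stipe and cap tissue each pool held was not measured.

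Mature tissues were also compared with stage 1 primordia, which these 5 comparisons share. In mature stipe 47 of the 116 genes rose (20.1% of all genes tested) and 14 fell (16.6% of all genes), with a median log2 fold change of 0.82, against 0.03 for all genes. In mature cap 40 rose (16.2% of all genes) and 24 fell (15.1% of all genes), with a median of 0.50, against 0.01. In skin 16 rose (12% of all genes) and 31 fell (9.71% of all genes), with a median of -0.07, against 0.03, and this median changed sign under several alternatives. In lamellae 5 rose (11.6% of all genes) and 73 fell (9.11% of all genes), with a median of -1.79, against 0.00. In the dedifferentiated cap 14 rose (20.0% of all genes) and 55 fell (14.7% of all genes), with a median of -1.35, against -0.05. Of the 167 genes chosen without stage 3 stipe replicate 3, 62 rose and 16 fell in mature stipe (median 0.84), and 66 rose and 25 fell in mature cap (median 1.02). In lamellae 5 of them rose and 73 fell (median -0.94), in skin 18 rose and 32 fell (median 0.26), and in the dedifferentiated cap 17 rose and 56 fell (median -0.62). The medians in mature cap, lamellae and dedifferentiated cap thus moved by over 1.5 times with the choice of genes.

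The genes with the widest early margin did not follow the list in the mature cap. Of the 21 with a margin of at least 2 log2 units, 2 rose in mature cap against stage 1 primordia (16.2% of all genes). In the same comparison 8 fell (15.1% of all genes), with a median of -0.93. In mature stipe 4 rose (20.1% of all genes) and 5 fell (16.6% of all genes), with a median of 0.02. These stipe counts lay near the shares of all genes. In lamellae 16 of the 21 fell (9.11% of all genes), with a median of -3.33, and 1 of the 21 had a positive fold change. No test was made of the difference between these 21 and the other genes of the list.

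Gene 784 showed the largest rise in both mature stipe and mature cap. It had 22298, 20740 and 24853 FPKM in mature stipe and 9399, 17973 and 13108 FPKM in mature cap, against 526, 317 and 771 FPKM in stage 1 primordia. Neither mature tissue overlapped with the primordia. The log2 fold changes were 5.39 ± 0.74 in stipe (SE; edgeR, Benjamini-Hochberg adjusted p = 3.32e-06) and 4.65 ± 0.72 in cap (SE; edgeR, Benjamini-Hochberg adjusted p = 2.09e-05). Skin had 2211 ± 235 FPKM, the dedifferentiated cap 1688 ± 440 (n = 2) and lamellae 261 ± 87.2, so mature stipe and mature cap stood apart from the other mature tissues for this gene. In young stipe its libraries were spread widely, at 864, 1333 and 4769 FPKM.

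Gene 1784 showed the largest fall in stipe, cap, lamellae and skin against stage 1 primordia among the called genes with a mean of at least 10 counts in both groups. Beside the 2556 to 7336 FPKM of the primordia, it had 3.36 to 154 FPKM in mature stipe, 0.848 to 0.992 in cap, 0.201 to 5.91 in lamellae and 1.54 to 2.94 in skin, with no overlap with the primordia in any of them. The log2 fold changes were -6.55 ± 1.48 in stipe (SE; edgeR, Benjamini-Hochberg adjusted p = 0.000888) and -12.47 ± 1.88 in cap (SE; edgeR, Benjamini-Hochberg adjusted p = 1.55e-05), and the stipe value was -10.21 without mature stipe replicate 3. In lamellae and skin they were -11.19 ± 1.79 and -11.15 ± 1.79 (SE; edgeR, Benjamini-Hochberg adjusted p = 3.04e-05 and 5.13e-05).

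Gene 27 rose most in lamellae and in skin, and was highest in lamellae, where most of the list fell. It had 5578, 6332 and 3913 FPKM in lamellae and 3074, 2443 and 3835 FPKM in skin, against 76.5, 111 and 149 FPKM in stage 1 primordia. The log2 fold changes were 5.55 ± 0.82 in lamellae (SE; edgeR, Benjamini-Hochberg adjusted p = 1.1e-05) and 4.79 ± 0.79 in skin (SE; edgeR, Benjamini-Hochberg adjusted p = 7.44e-05), with fractional counts in 5 of 32 libraries. Its mature stipe and cap means were 1843 ± 83.9 and 1415 ± 432 FPKM (SD, n = 3 each). The dedifferentiated cap libraries differed widely for this gene, at 1961 and 35.2 FPKM.

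In the dedifferentiated cap, gene 6585 rose most against stage 1 primordia, at 29.9 and 612 FPKM against 3.45, 3.16 and 19.2 FPKM. Its log2 fold change of 5.22 ± 0.87 (SE; edgeR, Benjamini-Hochberg adjusted p = 3.23e-05; 2.25e-10 to 0.0796 over the alternatives) was 1.79, and not called, without dedifferentiated cap replicate 2. Gene 8415 fell most, at 0.526 and 0.747 FPKM in the dedifferentiated cap and 505, 151 and 480 FPKM in stage 1 primordia. The log2 fold change was -9.23 ± 0.86 (SE; edgeR, Benjamini-Hochberg adjusted p = 5.44e-09), and it was -8.96 to -9.61 without single libraries. Mycelium had a similarly low level of gene 8415, 1.57 ± 0.673 FPKM (SD, n = 3), and mature stipe had 48.0 ± 6.35 FPKM.

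**Figure D5:**
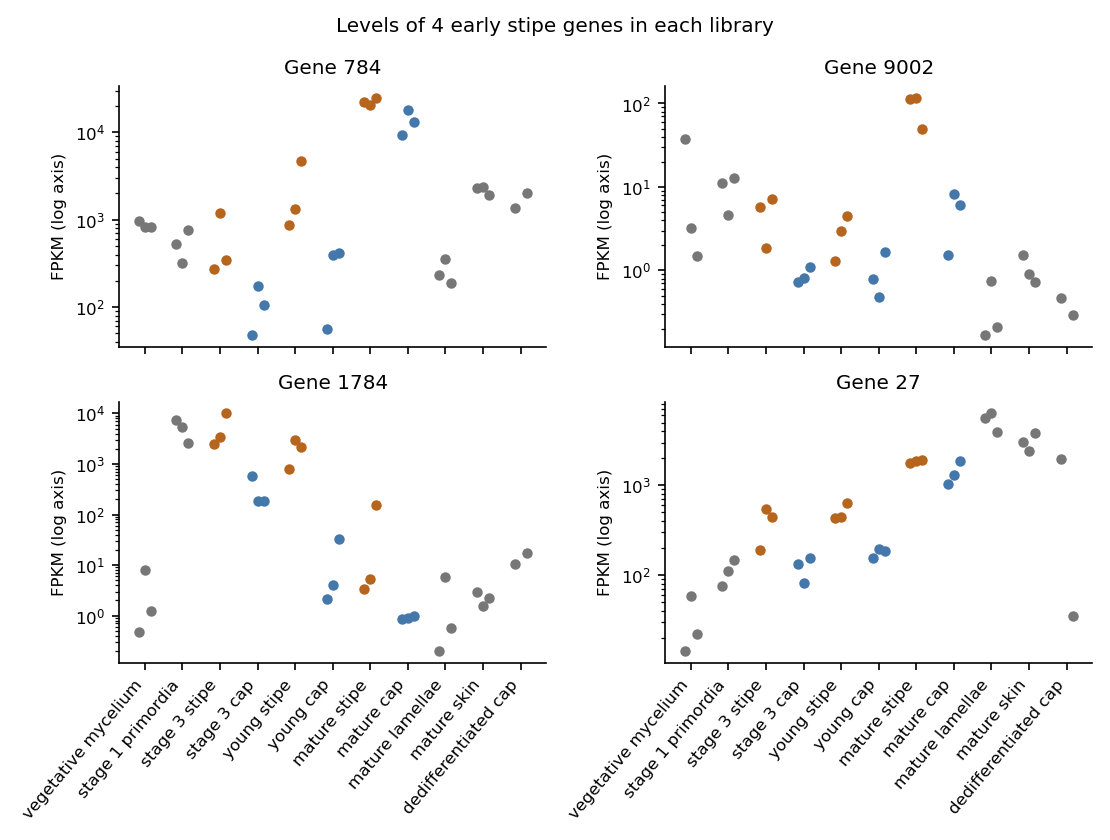
FPKM on a log axis of genes 784, 9002, 1784 and 27 in every library of the 11 groups (points; stipes brown, caps blue, other tissues grey). All 4 were chosen as higher in early stipes than in early caps, yet at maturity gene 784 was high in stipe and cap, gene 9002 in stipe, gene 1784 was low throughout apart from 1 stipe library at 154 FPKM, and gene 27 was highest in lamellae.

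The most abundant of the early stipe genes, by mean FPKM over the stage 3 and young stipes, were genes 11389 and 2900. Gene 11389 averaged 36651 ± 14681 FPKM in stage 3 stipe and 59367 ± 22152 in young stipe, against 2385 ± 1246 in stage 3 cap and 9062 ± 628 in young cap. At maturity its mean was 94120 ± 11827 FPKM in cap, 77142 ± 8001 in stipe and 34014 ± 2910 in skin, but 2558 ± 618 in lamellae (SD, n = 3 each) and 1052 ± 943 in the dedifferentiated cap (SD, n = 2). Its mature stipe libraries (71497, 73632 and 86299 FPKM) and mature cap libraries (83786, 107019 and 91557 FPKM) overlapped, and both lay above all lamellae libraries. Mycelium had 10.4, 124 and 28.7 FPKM and stage 1 primordia 22860, 19980 and 42071 FPKM, so this gene was already abundant in whole primordia.

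Gene 2900 averaged 13266 ± 9743 FPKM in stage 3 stipe and 12212 ± 5070 in young stipe, against 707 ± 254 in stage 3 cap and 2387 ± 1058 in young cap. In stage 3 stipe its libraries were 9430, 6026 and 24343 FPKM, the highest being replicate 3, the library that stood apart. At maturity its order differed from that of gene 11389: skin, at 11173 ± 2153 FPKM, was above stipe (7516 ± 645), cap (4583 ± 1322) and lamellae (1770 ± 715; SD, n = 3 each). Skin libraries (10071, 9794 and 13654 FPKM) did not overlap with stipe libraries (7249, 7047 and 8251 FPKM). These 2 genes were named for their abundance, and no test is given for them.

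Together, the 116 genes made up a sizeable part of the transcript pool. Their share of summed FPKM was 6.53% ± 0.06 in stage 3 stipe and 8.38% ± 1.02 in young stipe, against 1.01% ± 0.26 in stage 3 cap and 1.83% ± 0.14 in young cap. It was 10.9% ± 0.88 in mature stipe, 10.2% ± 0.95 in mature cap, 7.07% ± 0.32 in skin and 2.22% ± 0.38 in lamellae (SD, n = 3 each) and 1.92% ± 0.18 in the dedifferentiated cap (SD, n = 2). Gene 11389 accounted for a large part of this, since without it the shares were 6.95% ± 0.34 in mature stipe and 4.96% ± 0.87 in mature cap, with 4.23% ± 1.15 in stage 3 stipe and 0.85% ± 0.18 in stage 3 cap.

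The early cap genes are described beside them. At maturity 97 of those 217 genes had their highest mean in skin, against 9.4% of all genes, and 2 in mature cap, against 14.4%. Lamellae held the highest mean for 55 (25.4% of all genes) and the dedifferentiated cap for 54 (30.5% of all genes), shares close to or under those of all genes. Mature cap held the lowest mean for 85, against 15.5% of all genes. Against mature skin, 4 of the early cap genes were higher in mature stipe (4.99% of all genes) and 90 were lower (4.35% of all genes), beside 50 and 3 of the early stipe genes. Against mature cap, 5 of them were higher in mature stipe (1.46% of all genes) and 4 lower (0.222% of all genes). Their median log2 fold change there was 0.20, with 139 positive and 78 negative. By this median the early cap genes also leaned to the mature stipe, less than the 116 early stipe genes (0.46). Their calls went both ways, at 2.3% higher and 1.84% lower, each above the share of all genes. Their median equalled that of the 167 genes chosen without stage 3 stipe replicate 3. The lists do not overlap by construction, so no test of one against the other is given.

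Gene length and shared reads were compared as properties that the rule did not use directly. Its minimum of the raw count depends on both length and level. The length implied by counts and FPKM had a median of 1082 bases over the 116 genes (quartiles 599 and 1623) and 972 bases over the 8007 genes past the count minimum in both early stipes (quartiles 512 and 1561). Fractional counts in at least 1 library were present for 37 of the 116 genes (31.9%), against 24.3% of all genes in the table.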

How the data were processed

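The authors deposited, for each of 32 libraries, expected counts (estimated, in part fractional; 95.2% of values above 0 whole within 0.000001) for 12329 genes, and 1 table for 10755 of them, with values down to -8.87. The deposited values were read as log2 FPKM of the authors, since 2 to their power keeps a fixed ratio per gene to the counts over the TMM-scaled library total (coefficient of variation up to 0.177% over 4101 genes). The submitters' processing notes name STAR, featureCounts, R 3.0.2, edgeR 3.4.2 and limma 3.18.13, with no role or order. Neither genome build nor annotation is stated there. Libraries were strand-specific, from poly(A) RNA, per the labels' protocols.

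Counts were rounded and filtered by filterByExpr (10814 genes kept, all 116 early stipe genes among them). TMM scaling and 1 robust quasi-likelihood fit of all 32 libraries with 11 group means followed (edgeR 4.0.16, R 4.3.3), which left 21 residual degrees of freedom. Calls needed an adjusted p (Benjamini-Hochberg, over every gene tested) below 0.05 and a change of 2-fold or more. Rounding and shared reads can alter low or fractional counts. Changes are relative to the TMM scaling.

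Groups and replicate numbers come from the titles. The titles number the dedifferentiated cap libraries 1 and 2, and their descriptions 2 and 3. The protocols speak of biological replicates, each a pool. The genes, comparisons and lists were chosen with earlier results of these data known. In each comparison the genes named have the largest fold change each way, out of those called whose libraries did not overlap and whose mean counts were 10 or more on either side (2 each way in mature stipe against mature cap, 1 each way elsewhere), plus the 2 most abundant; gene 165 was named for its margin, and the stipe-cap test of gene 10083 given, after their values were seen. Alternatives were DESeq2 1.42.0 size factors and test, library size alone, no filter, only the compared groups, limma 3.58.1 on log2(FPKM + 1) or log2(FPKM + 0.1), other fold thresholds, a replicate block, single libraries left out, and other choices of the genes. Implied length is the count divided by FPKM and the TMM-scaled library total, as a median over libraries with at least 200 counts.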

Additional observations from a re-analysis of the deposited data

How the results depend on the processing

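Of 242 alternative counts of called genes or of list members, 217 were within 1.5 times the main count and 25 were not. Of the alternative medians of the list, 171 moved by less than 1 SD between replicates, 19 moved by more and 8 changed sign. Among those that moved or changed sign, 8 came with the list chosen without stage 3 stipe replicate 3 (values in the text above). Of the alternative results for named genes, 333 kept their call and 23 lost it, in genes 1784 (9), 10083 (5), 9508 (4), 9002 (3) and 6585 (2). With the 21 genes at a margin of 2 in place of the 116, the called genes numbered 14 in stage 1 primordia against mycelium, 4, 17, 9 and 12 in mature stipe against cap, lamellae, skin and dedifferentiated cap, 9, 10, 16, 10 and 14 in mature stipe, cap, lamellae, skin and dedifferentiated cap against stage 1 primordia, and 19 in the test among mature tissues, which follows from the shorter list. A 4-fold threshold left 43 in stage 1 primordia against mycelium, 5 in mature stipe against cap, 23 against skin, 38 in mature stipe and 30 in mature cap against stage 1 primordia, by its construction. Mature stipe against cap had 16 (14 higher, 2 lower) with only these groups in the fit and 15 with the DESeq2 test; the cause was not tested. Without single libraries it had 0 to 11, mature stipe against skin 33 to 56, and the list itself 109 to 167 genes. Scaling the FPKM by library size alone gave 82 genes, all among the 116. The median in mature skin against stage 1 primordia, -0.07, was 0.07, 0.08 and 0.07 with the limma settings, 0.26 for the 167 genes chosen without stage 3 stipe replicate 3 and -0.18 to 0.21 without single libraries; that in mature cap was -0.93 at a margin of 2; the causes were not tested. Scaled by library size alone, all genes tested had a median of -0.40 in mature stipe against lamellae and -0.36 against skin, and the list 2.10 and 0.81. The deviations of same-numbered libraries had correlations from -0.473 to 0.237. All pairs were positive only in mature stipe against mature cap (0.009, 0.23 and 0.147) and against stage 1 primordia (0.171, 0.001 and 0.237). The numbers were not taken to pair the libraries. With a replicate block the counts were within 1.5 times the main ones (8 in mature stipe against cap, 90 against lamellae). Gene 1784 then lost its call in mature stipe against cap (5.44, edgeR Benjamini-Hochberg adjusted p = 0.0607). With 2 or 3 pools a group, small differences were not detectable at this depth and spread.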
